A study of Mus musculus with 6 samples.

Results

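SOX proteins are transcription factors that bind DNA through an HMG box and bend it. The genes described here are Sox4, Sox7, Sox12, Sox13, Sox15, Sox17 and Sox18, which were taken by symbol from a table of read counts on 49315 genes in bEND.3 cells, an immortalized endothelial line from mouse brain. They are 7 of the 20 mouse SOX family genes in the table. Sox15 was chosen because its counts appeared after Gm39822 knockdown, so its values are given as a description with no test. The other 6 were chosen by name, with earlier results of these data known.

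Cells were transfected with Lipofectamine 2000 and 100 nM of an LNA GapmeR, an antisense oligonucleotide whose DNA centre lets RNase H cut the RNA that it binds. In 4 samples, named GapmeR, the oligonucleotide targeted the long non-coding RNA Gm39822, and in 2 samples, named negative control, it was a control sequence. The labels give a single product for each group and 1 cell line, so the loss of Gm39822 and any other action of its oligonucleotide cannot be told apart. They do not say that samples came from separate cultures, so p-values measure the spread between these samples, which may be technical.

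SOX genes fall into groups by the sequence of the HMG box. Group F, with Sox7, Sox17 and Sox18, is the group best known in endothelium, where its members act in arterial and lymphatic fate, and SOX17 is active in the vessels of the brain. Group C, with Sox4 and Sox12, is known from progenitor cells and many tumours, group D, with Sox13, lacks a transactivation domain, and Sox15, the only mouse gene of group G, is known from muscle precursors, placenta and germ cells.

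Depth was similar in all samples, with 30264086 to 37117934 counts in the GapmeR samples, against 29261988 and 34266811 in the controls, and 3 counts were worth 0.0771 to 0.110 CPM (read counts relative to a library size scaled by the TMM method of edgeR). Gm39822 itself had 61 and 56 counts in the controls, against 2, 1, 4 and 2 in the GapmeR samples. Of the 18234 genes tested with edgeR's quasi-likelihood test, 25.4% were higher and 20.0% lower in the GapmeR samples at a Benjamini-Hochberg adjusted p under 0.05. Scaling by library size alone moved the log2 fold change of the median gene by 0.15, and the share of higher genes among those called from 55.9% to 74.1%. All 12 endothelial markers passed the count filter. Their sum was 9062 to 10379 CPM in the GapmeR samples and 10840 to 11286 CPM in the controls. With library size scaling these sums overlapped between the groups. Of the markers, 2 were higher, 6 lower and 4 not past the test. In bulk RNA, fewer cells of a type and less RNA per cell cannot be told apart.

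Of the 6 SOX genes tested, Sox17, Sox4 and Sox13 fell and Sox18 and Sox7 rose after knockdown, while Sox12 did not pass the test. Across all genes tested, 45.3% passed, so a call was common among expressed genes. The groups did not overlap for 5 of these 6 genes, against 59.2% of all genes tested (31.9% with all GapmeR samples above and 27.3% with all below). By the size of the log2 fold change the tested members were not extreme either, since 25.2% of all genes tested had a larger change than Sox17, and 34.1% a larger change than Sox4. A larger change than that of Sox15 was found in 0.543% of genes, but Sox15 was chosen for its rise, so this rank follows from the choice.

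**Figure D1:**
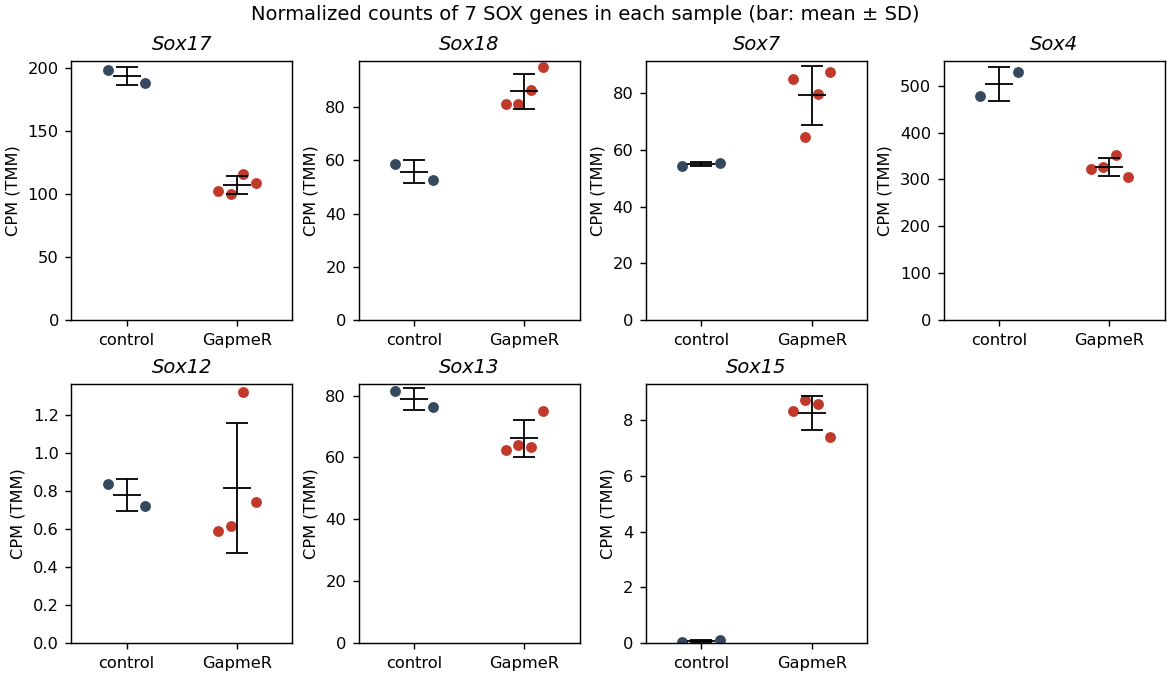
Normalized counts (CPM, TMM-scaled, each axis from 0) of the 7 SOX genes, with 1 point per sample, blue for the 2 negative controls and red for the 4 GapmeR samples, and bars for the mean ± SD. The points of the groups are apart for every gene but Sox12, with Sox17, Sox4 and Sox13 lower and Sox18, Sox7 and Sox15 higher in the GapmeR samples.

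The regulatory sequence of the gene that appeared and of the most abundant SOX gene is shown first, as the 250 bases before the start of each gene in RefSeq on GRCm38.p6. These lie at chr11:69654787-69655036 on the plus strand for Sox15 and at chr13:28953700-28953949 on the minus strand for Sox4. Both are written 5′ to 3′, and capitals mark the SOX core ACAAT, which was searched on both strands (ACAAT or ATTGT).
Sox15: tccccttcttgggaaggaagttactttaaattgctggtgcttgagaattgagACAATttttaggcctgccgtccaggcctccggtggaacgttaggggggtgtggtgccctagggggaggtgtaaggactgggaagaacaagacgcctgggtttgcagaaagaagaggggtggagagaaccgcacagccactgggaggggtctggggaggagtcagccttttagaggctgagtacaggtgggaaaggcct
Sox4: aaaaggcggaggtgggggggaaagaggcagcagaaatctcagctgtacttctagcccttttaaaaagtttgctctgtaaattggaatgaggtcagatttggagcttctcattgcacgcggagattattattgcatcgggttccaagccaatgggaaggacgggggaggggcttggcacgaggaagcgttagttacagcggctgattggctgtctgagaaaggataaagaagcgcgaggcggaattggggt
The Sox15 window held 1 SOX core, 198 bases before the start, and 5 CpG dinucleotides, against a median of 6 over the 32851 promoters of the same table. A SOX core was present in 27.66% of those promoters. Neither a CCAAT box (CCAAT or ATTGG, in 33.85% of promoters), nor a TATA box (TATAAA or TTTATA, in 12.37%), nor a GC box (GGGCGG or CCGCCC, in 32.74%) was found in the Sox15 window. The Sox4 window held 11 CpG and 4 CCAAT boxes, at 171, 104, 47 and 8 bases before the start, and no SOX core, TATA box or GC box. Promoter windows were also read for Sox12, with 35 CpG, 1 CCAAT box and 3 GC boxes, and for Sox13, with 31 CpG and none of the 4 motifs. Each match describes letters in a window and is not a binding site.

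Sox17 showed the deepest fall of the 6 tested members. It is listed as ENSMUSG00000025902 and spans positions 4490928 to 4497426 on chromosome 1 of mm10. GapmeR samples 1 to 4 had 3481, 3903, 3600 and 3527 counts, and controls 1 and 2 had 5441 and 6019. After scaling, the GapmeR samples had 102.7, 100.2, 116.1 and 109.2 CPM and the controls 198.6 and 188.6 CPM, with a wide gap between the groups. The mean was 107.1 ± 7.09 CPM (SD of n = 4) after knockdown and 193.6 ± 7.09 CPM (SD of n = 2) in the controls, a log2 fold change of -0.86 ± 0.07 (SE, adjusted p = 1.281e-07 in the quasi-likelihood test of edgeR). Leaving out each sample in turn gave log2 fold changes between -0.87 and -0.80.

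Sox18, mutated in a human syndrome of hair and lymphatic vessels, moved the other way. Its gene, ENSMUSG00000046470, spans positions 181669837 to 181671640 on chromosome 2 of mm10. The GapmeR samples had 2750, 3159, 2680 and 3076 counts and the controls 1612 and 1684. Every GapmeR sample, at 81.2, 81.1, 86.4 and 95.2 CPM, was above both controls, at 58.8 and 52.8 CPM. Sox18 rose from 55.8 ± 4.30 CPM (SD of n = 2) to 86.0 ± 6.64 CPM (SD of n = 4), with a log2 fold change of 0.62 ± 0.08 (SE, edgeR adjusted p = 1.806e-05).

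Sox7, the remaining gene of group F, also rose, with more spread between the knockdown samples. Its gene, ENSMUSG00000063060, spans positions 63943706 to 63950732 on chromosome 14 of mm10. Counts were 2879, 2513, 2479 and 2833 in the GapmeR samples, against 1492 and 1769 in the controls. On the CPM scale these were 85.0, 64.5, 79.9 and 87.7 after knockdown and 54.5 and 55.4 in the controls. GapmeR sample 2 lay nearest to the controls, and the groups did not overlap. The means were 79.3 ± 10.3 CPM (SD of n = 4) and 54.9 ± 0.682 CPM (SD of n = 2), and the log2 fold change was 0.53 ± 0.11 (SE, edgeR adjusted p = 0.001065).

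Since these proteins can bind the same sites in endothelial genes, the makeup of group F RNA was compared within each sample, using CPM per kilobase of exon. Sox17 made up 42.3% and 42.8% of the group's level in the controls and 20.9%, 21.8%, 22.6% and 19.95% in GapmeR samples 1 to 4. The share of Sox18 was 41.1% and 39.2% in the controls and 54.2%, 58.0%, 55.1% and 57.1% after knockdown. That of Sox7 was 16.6% and 18.01% against 24.8%, 20.2%, 22.3% and 23.0%. Sox17 and Sox18 were thus near equal in the controls, while Sox18 held the larger part in each knockdown sample. The near equality depends on the length used, since with the longest transcript Sox17 was at 47.1 ± 1.72 CPM per kb and Sox18 at 34.3 ± 2.65 CPM per kb (SD of n = 2) in the controls. With TMM scaling, the summed level of the group overlapped between the conditions. It was 88.1 and 82.8 CPM per kb in the controls and 92.1, 86.1, 96.4 and 102.7 CPM per kb in the GapmeR samples. The TMM factors were 0.936 and 0.931 in the controls and 1.025 to 1.049 in the GapmeR samples. With library size scaling every GapmeR sample lay above both controls.

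**Figure D2:**
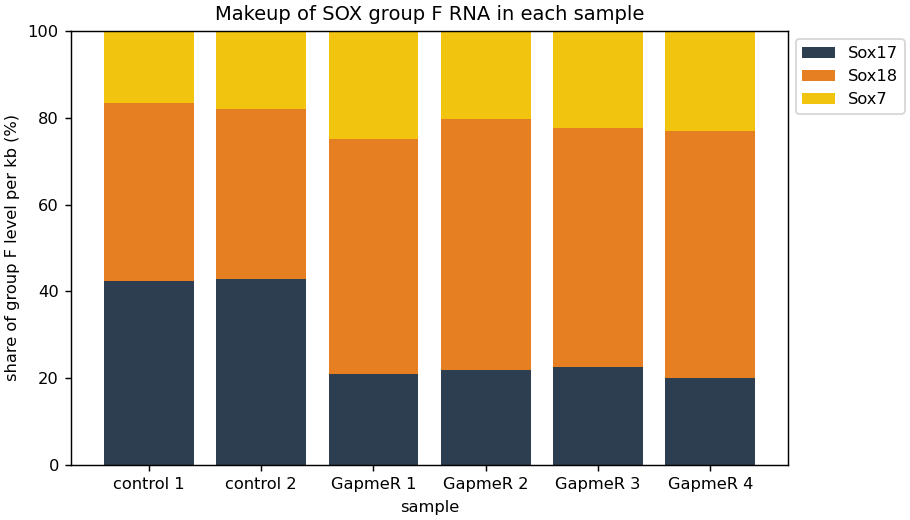
Share (%) of Sox17, Sox18 and Sox7 in the summed group F level per kb, with 1 stacked bar for each of the 2 negative control and 4 GapmeR samples. Sox17 takes over 42% of both control bars and under 23% of each GapmeR bar, and Sox18 grows to between 54.2% and 58.0%.

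Ratios of raw counts do not depend on the scaling between samples, and those of Sox17 to the other genes of the group too differed between conditions. Gene length sets the size of such a ratio, so it is not a ratio of abundance. As a constant, length does not alter the comparison between the groups. There were 3.38 and 3.57 counts of Sox17 for each count of Sox18 in the controls, and 1.27, 1.24, 1.34 and 1.15 after knockdown. The ratio of Sox17 to Sox7 was 3.52 ± 0.173 (SD of n = 2) in the controls and 1.36 ± 0.165 (SD of n = 4) in the GapmeR samples. In contrast, the ratio of Sox18 to Sox7 overlapped between the groups, at 1.02 ± 0.0908 and 1.09 ± 0.124. With 15 ways to split 4 samples and 2, an exact permutation test has no p below 0.0667, so these ratios could not pass a threshold of 0.05.

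Genes with promoters or enhancers known to be bound by group F proteins in endothelium were listed next. Of the 10 genes, 8 passed the count filter, none was higher, 4 were lower and 4 did not pass the test, with a median log2 fold change of -0.15 against 0.03 over all genes tested, where 45.3% were called (25.4% higher and 20.0% lower). With library size scaling the split turned to 3 higher (Cldn5, Robo4 and Efnb2) and 2 lower (Cdh5 and Vcam1). Vcam1, the leukocyte adhesion molecule, fell most, from 33.6 ± 0.960 CPM (SD of n = 2) to 14.5 ± 1.47 CPM (SD of n = 4), with a log2 fold change of -1.21 ± 0.10 (SE, edgeR adjusted p = 3.96e-08). Cdh5, the cadherin of endothelial junctions, fell by 0.51 on the log2 scale (SE 0.09, edgeR adjusted p = 0.0003478). Kdr, a VEGF receptor, was at -0.33 (edgeR adjusted p = 0.003873) and the Notch ligand Dll4 at -0.19 (edgeR adjusted p = 0.0412). Without control 2, Kdr was at -0.27 (adjusted p = 0.1002) and Dll4 at -0.14 (adjusted p = 0.3279, edgeR), and 2 genes of the list passed instead of 4. The call on Dll4 was also lost without control 1 (adjusted p = 0.1518), GapmeR 1 (0.09537) or GapmeR 3 (0.1508, edgeR), and in most other settings tried.

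The 4 genes of this list that did not pass were Cldn5, a tight junction protein of the blood-brain barrier, at 0.09, the guidance receptor Robo4 at 0.13, the arterial ligand Efnb2 at 0.17 and the receptor Notch1 at -0.12 on the log2 scale. All 4 were well counted, with means of 108.1 to 1463 CPM in the controls. Prox1, the lymphatic regulator that is a target of SOX18, had 0 to 3 counts in every sample, and Mmp7, a matrix protease, had none. The lymphatic target was therefore near the limit of detection in both groups. Cdh5, Kdr and Cldn5 also stand among the endothelial markers, so the 2 lists share these values.

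The partners and other targets of the SOX proteins moved little. Of 10 genes, all tested, none was higher and 2 were lower, and the median log2 fold change was -0.13, while 20.0% of all genes tested were lower. With library size scaling Rbpj was the gene called, as higher (0.27, edgeR adjusted p = 0.01632), and none was lower. Among the partners, Mef2c, which pairs with SOX18, was at -0.01, Rbpj, the DNA-binding partner of Notch, at 0.12, and Ctnnb1, which encodes β-catenin, at 0.00. Hhex and Tcf7, partners of SOX13, were at -0.23 and -0.03, and Fhl3, a partner of SOX15, at -0.16. Among the targets, Foxk1, known downstream of SOX15 in muscle precursors, was at -0.20 (adjusted p = 0.02231) and Ezh2, a histone methyltransferase under SOX4 in breast cells, at -0.23 (adjusted p = 0.02611, edgeR). Without control 2 their log2 fold changes were -0.13 (adjusted p = 0.308) and -0.14 (adjusted p = 0.3511, edgeR), and neither passed without control 1, GapmeR 1 or GapmeR 3. Tead2, at -0.10, and Tubb3, at -0.39, did not pass the test.

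Sox4 had the most counts of the family and fell with Sox17. The gene, ENSMUSG00000076431, spans positions 28948919 to 28953699 on chromosome 13 of mm10. It had 10921, 12717, 10956 and 9848 counts in the GapmeR samples, against 13113 and 16929 in the controls. On the CPM scale the GapmeR samples, at 322.3, 326.6, 353.2 and 304.9, were all below the controls, at 478.7 and 530.5. The means of 326.8 ± 20.0 CPM (SD of n = 4) and 504.6 ± 36.6 CPM (SD of n = 2) gave a log2 fold change of -0.63 ± 0.08 (SE, edgeR adjusted p = 7.672e-06). Its promoter is the one printed above with 4 CCAAT boxes and no SOX core.

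Sox12, a close relative of Sox4, was at a low level in these cells. Listed as ENSMUSG00000051817, it spans positions 152393611 to 152398046 on chromosome 2 of mm10. Counts were 20, 24, 41 and 24 in the GapmeR samples, against 23 and 23 in the controls. The values overlapped, with GapmeR sample 3 above all others and the other GapmeR samples around the controls. Means were 0.818 ± 0.343 CPM (SD of n = 4) and 0.780 ± 0.0841 CPM (SD of n = 2), and the log2 fold change was 0.06 ± 0.36 (SE, edgeR adjusted p = 0.9117). Without GapmeR sample 3 the sign turned, to -0.24, so no direction can be read at this depth.

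Sox13, of group D and best known from T cells, was lower by a small margin. The gene, ENSMUSG00000070643, spans positions 133382300 to 133424459 on chromosome 1 of mm10. Its GapmeR samples had 62.2, 64.0, 63.4 and 75.0 CPM and its controls 81.5 and 76.3 CPM. Sample 4 of the GapmeR group stood apart from the other 3 and close to the lower control. The log2 fold change was -0.25 ± 0.08 (SE, edgeR adjusted p = 0.01948), from 78.9 ± 3.69 CPM (SD of n = 2) to 66.2 ± 5.95 CPM (SD of n = 4). This call rested on single samples, since it was lost without control 1 (-0.19, adjusted p = 0.2269), control 2 (-0.28, adjusted p = 0.07882), GapmeR 1 (-0.22, adjusted p = 0.0617) or GapmeR 3 (-0.21, adjusted p = 0.05999), and with library size scaling (-0.10, adjusted p = 0.3352, edgeR).

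Sox15 was the member with a different scale of change. Its gene, ENSMUSG00000041287, spans positions 69655037 to 69656727 on the plus strand of chromosome 11 of mm10, and the 250 bases before it are those printed above. It had 1 and 3 counts in the controls, at or under 3 counts, and 283, 340, 266 and 239 counts in the GapmeR samples. After scaling these were 0.037 and 0.094 CPM against 8.35, 8.73, 8.58 and 7.40 CPM, so that the knockdown samples lay close together. The 1128 counts of the GapmeR samples and 4 of the controls gave a ratio of 122.8 after scaling, with a 95% interval from 47.8 to 451.6 that covers counting error only. The fitted log2 fold change was 6.86, and it was 6.42 without control 1 and 7.70 without control 2, since 1 or 3 counts set its base. As Sox15 was chosen for these values, they are not tested.

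Markers of the cells in which SOX15 is best known were low in both groups. Of the markers of pluripotent or germ cells, Nanog had no counts, Pou5f1 had 0 to 2, and Dppa5a had 6, 10, 4 and 6 counts in the GapmeR samples and none in the controls. The summed level of the 3 genes was 0.129 to 0.308 CPM against 0. The myogenic markers Myod1, Myf5 and Pax7 had at most 1 count in any sample. Their part in the Sox15 counts was not tested.

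The nearest gene upstream of Sox15 is Fxr2, which encodes a relative of the fragile X protein that binds RNA. It lies on the same strand and ends 1702 bases before Sox15 in the GENCODE annotation of GRCm39. Fxr2 was well expressed, with 5525, 7048, 4925 and 4993 counts in the GapmeR samples, against 5695 and 7263 in the controls. It fell while Sox15 appeared, from 217.7 ± 13.9 CPM (SD of n = 2) to 164.4 ± 11.6 CPM (SD of n = 4), with a log2 fold change of -0.41 ± 0.08 (SE, edgeR adjusted p = 0.0005321). For each 100 counts of Fxr2 there were 5.12, 4.82, 5.40 and 4.79 counts of Sox15 in the GapmeR samples, against 0.0176 and 0.0413 in the controls. The narrow range among the knockdown samples also held for Sox15 alone, so it says nothing of a link between the genes.

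On its other side, Sox15 overlaps the end of Mpdu1, a gene of sugar donor use in glycosylation, by 31 bases on the opposite strand. Mpdu1 had 72.3 ± 13.5 CPM (SD of n = 4) after knockdown and 86.0 ± 10.2 CPM (SD of n = 2) in the controls, with a log2 fold change of -0.25 ± 0.15 (SE, edgeR adjusted p = 0.2261). Whether the counting used strand is not given in the sources used here, so reads from the overlap could have been assigned to either gene. No stretch of 50 bases in Sox15 transcripts was shared with a transcript of any other gene. Whether the Sox15 reads began at its own start or upstream of it was not tested.

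**Figure D3:**
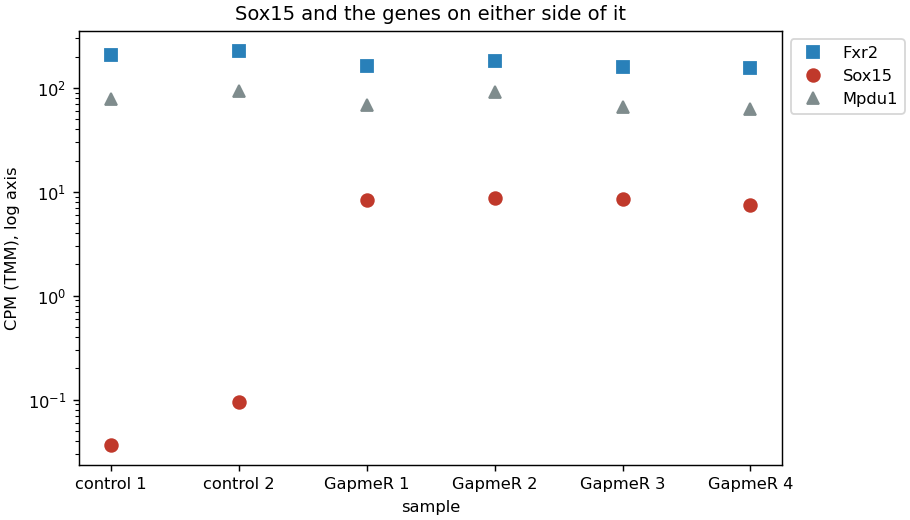
Normalized counts (CPM, TMM-scaled, log axis) of Sox15, its upstream neighbour Fxr2 and the overlapping gene Mpdu1, with 1 point per gene in each of the 6 samples. Sox15 lies below 0.1 CPM in both controls and between 7.40 and 8.73 CPM in the GapmeR samples, while Fxr2 is lower in the GapmeR samples (164.4 against 217.7 CPM) and Mpdu1 overlaps between the groups.

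The genes nearest to Sox15 in pattern were searched among 12771 genes, by Euclidean distance over the 6 samples of log2(CPM + 0.1) centred on each gene. They were Sytl1, a Rab27 effector, at a distance of 0.291, Chrna10, a nicotinic receptor subunit, at 0.305, and the transcript Gm29797 at 0.355. Sytl1 had 200, 230, 185 and 198 counts after knockdown and 0 and 2 in the controls. Chrna10 had 427, 513, 395 and 394 against 2 and 5, and Gm29797 had 171, 264, 177 and 196 against 0 and 1. The nearest tested gene upstream on the same strand, sought at any distance, ends 593 bases before Sytl1 (Tmem222), 2569 bases before Chrna10 (Nup98) and 1180 bases before Gm29797 (Prpf6). These upstream genes had log2 fold changes of -0.29, -0.16 and -0.08. The 3 genes were picked by the values for which Sox15 was chosen, so their neighbours say nothing of Sox15. The share of all genes tested with so near a neighbour was not counted.

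The genes most like Sox17 were Pde4d, a cyclic AMP phosphodiesterase, at a distance of 0.0945, Ext2, a heparan sulfate polymerase, at 0.0988, and the lysosomal gene Tmem192 at 0.125. Pde4d fell from 24.9 ± 0.256 CPM (SD of n = 2) to 13.7 ± 0.720 CPM (SD of n = 4). Those most like Sox18 were Wscd1 at 0.0604, Accs at 0.0674 and Adora2a, an adenosine receptor, at 0.0867. Adora2a had 8.21 ± 0.478 CPM (SD of n = 4) after knockdown and 5.41 ± 0.607 CPM (SD of n = 2) in the controls. With 6 samples in 2 groups, these distances mostly measure the difference between the groups.

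Around the other members the annotation held few expressed genes. Upstream of Sox7, at 23.7 kb on the same strand, lies Pinx1, which encodes a telomerase inhibitor. Pinx1 rose as Sox7 did, from 19.8 ± 0.0874 CPM (SD of n = 2) to 31.4 ± 1.85 CPM (SD of n = 4), with a log2 fold change of 0.66 ± 0.09 (SE, edgeR adjusted p = 1.179e-05). Beside Sox18, Tcea2 was at 0.04 and Rgs19 at 0.11, and beside Sox12, Zcchc3 was at -0.12 on the log2 scale, and none of the 3 passed the test. The nearest tested gene upstream on the strand of Sox4, Cdkal1, ends at a distance of 238 kb. It was lower, with a log2 fold change of -0.57 (edgeR adjusted p = 0.000567).

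Some genes overlap a member in the annotation, which matters where reads are counted without strand. Sox4 lies within the antisense transcript A330102I10Rik, which had 1 or 2 counts in every sample and shares 16.1% of the 50-base stretches of Sox4. Gm37587 overlaps Sox17 by 1011 bases on the opposite strand and had 3 to 10 counts, and Etnk2 overlaps Sox13 by 105 bases. A transcript not in the count table, Gm74574, shares 23.6% of the 50-base stretches of Sox18. No member shared a 50-base stretch with another SOX gene, so reads of that length that match exactly could not be confused within the family.

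The levels of the SOX genes were next compared per kilobase of exon. In the controls the order was Sox4 with 105.2 ± 7.63 CPM per kb (SD of n = 2), Sox17 with 36.3 ± 1.33, Sox18 with 34.3 ± 2.65, Sox13 with 15.01 ± 0.702 and Sox7 with 14.8 ± 0.183. The values of Sox17 and Sox18 overlapped, as did those of Sox13 and Sox7. With the length of the longest transcript neither pair overlapped, as Sox17 was at 47.1 ± 1.72 and Sox13 at 20.1 ± 0.938 CPM per kb. In the GapmeR samples the order was Sox4 with 68.1 ± 4.17 CPM per kb (SD of n = 4), Sox18 with 52.9 ± 4.09, Sox7 with 21.3 ± 2.78, Sox17 with 20.1 ± 1.33, Sox13 with 12.6 ± 1.13 and Sox15 with 7.03 ± 0.509. The values of Sox7 and Sox17 overlapped, and with the longest transcript Sox17 was at 26.0 CPM per kb and stood above Sox7. Sox15 thus went from 13th of the family, at 0.0555 ± 0.0346 CPM per kb, to 6th, still below Sox13. Sox12 was at 0.175 and 0.184 CPM per kb, far under the other members in the GapmeR samples.

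**Figure D4:**
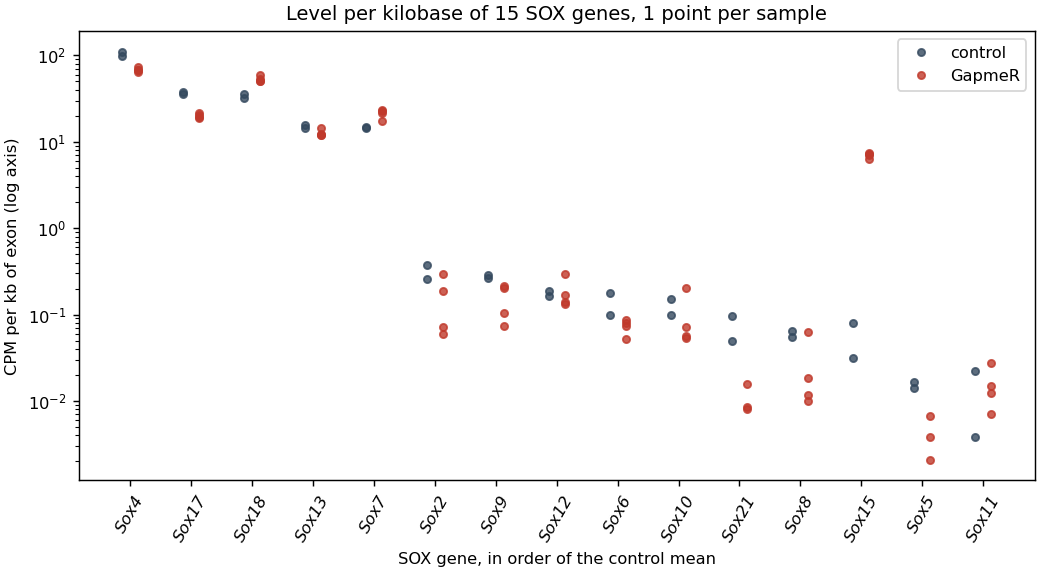
Level per kilobase of exon (CPM per kb, log axis) of the 15 SOX genes that passed the count filter, in the order of the control mean, with 1 point per sample, blue for controls and red for GapmeR samples. Values of 0 (Sox21 and Sox5, 1 GapmeR sample each) are not drawn, and Sox15 goes from 0.0555 to 7.03 CPM per kb.

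Sox4 made up 49.0% and 53.1% of the summed level per kb of the 7 genes in the controls and 34.0% to 39.2% after knockdown. Group F made up 43.3% and 39.8% in the controls and 49.5% to 54.9% in the GapmeR samples. The summed level of all 7 was 203.7 and 208.2 CPM per kb in the controls and 174.0 to 189.8 CPM per kb after knockdown. The groups did not overlap in any of these 3 measures. The shares of Sox4 and group F are parts of the same whole, so they are not separate results. With library size scaling the summed level of all 7 overlapped between the groups.

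Of the other 13 genes of the family, 8 passed the count filter, and all were at low levels. Sox6, of group D, had the most counts, with 29, 51, 43 and 39 in the GapmeR samples, against 78 and 51 in the controls. Its log2 fold change was -0.89 ± 0.27 (SE, edgeR adjusted p = 0.01425), but it was -0.41 (adjusted p = 0.389, edgeR) without control 1. Sox5, also of group D, had 2, 4, 1 and 0 counts against 7 and 7, a log2 fold change of -2.13 that became -1.76 without GapmeR 4. Sox21, a neural repressor of group B, had 2, 0, 1 and 1 counts against 10 and 6, a log2 fold change of -3.05. Both passed the count filter through the controls alone. The filter thus favoured a call of lower, and their p-values are not given. The log2 fold changes of Sox13, Sox6 and Sox5, the genes of group D, were negative, but no shared fall can be read from them. The filter favoured a negative value for Sox5, and those of Sox13 and Sox6 were smaller in size without control 1.

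The remaining genes did not pass the test. Sox2, of neural stem cells, had 5, 15, 19 and 4 counts after knockdown and 21 and 17 in the controls, and Sox9, of cartilage, had 29, 12, 28 and 14 against 30 and 38. Sox8 had 2, 2, 10 and 3 counts against 9 and 9. Sox10, of neural crest and glia, had 8, 7, 21 and 6 against 9 and 16, and Sox11 had 2, 4, 7 and 4 against 5 and 1. All 5 were highest on the CPM scale, among the GapmeR samples, in sample 3. Without that sample, Sox2 was at -1.48 (adjusted p = 0.0179) and Sox9 at -1.09 (adjusted p = 0.0217, edgeR), and both passed. Sox8 was then at -2.11 but passed the count filter only through the controls, so its p-value is not given. As the sample left out was the highest of its group, leaving it out favoured lower values. Sox9 also passed without GapmeR 1 (-1.08, edgeR adjusted p = 0.04361). Sry and Sox14 had no counts, and Sox1, Sox3 and Sox30 had at most 5 in a sample.

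Neuronal markers are given beside the SOX genes of neural cells. The summed level of Rbfox3, Snap25 and Syt1 was 43.4 and 42.1 CPM in the controls. In GapmeR samples 1 to 4 it was 21.0, 22.2, 32.8 and 19.0 CPM. All 3 were lower in edgeR's test, while 20.0% of all genes tested were lower and 25.4% higher. GapmeR sample 3 was again the highest of its group. Markers of mural cells summed to 1.90 and 1.35 CPM in the controls and 6.76, 6.70, 10.1 and 8.02 CPM after knockdown, with 1 of 6 higher, the smooth muscle myosin Myh11. Macrophage markers summed to 103.1 and 104.6 CPM against 142.8, 129.6, 172.8 and 169.6 CPM, with 1 of 6 higher, Cd68. Most of the sum was Cd68, at 123.2, 113.0, 125.0 and 116.1 CPM in the GapmeR samples. Ptprc, Adgre1, Csf1r, Itgam and Tyrobp did not pass, with log2 fold changes of 1.03 to 1.19, and were highest in GapmeR samples 3 and 4. Csf1r had 316, 288, 701 and 833 counts, against 201 and 218 in the controls. Epithelial markers stayed under 0.434 CPM in every sample. Among them Krt14 passed the count filter only through the controls, with 1, 2, 1 and 1 counts against 7 and 9. Its p-value is not given, and Krt5 did not pass the test. The part of these cell types in the SOX values was not tested.

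**Figure D5:**
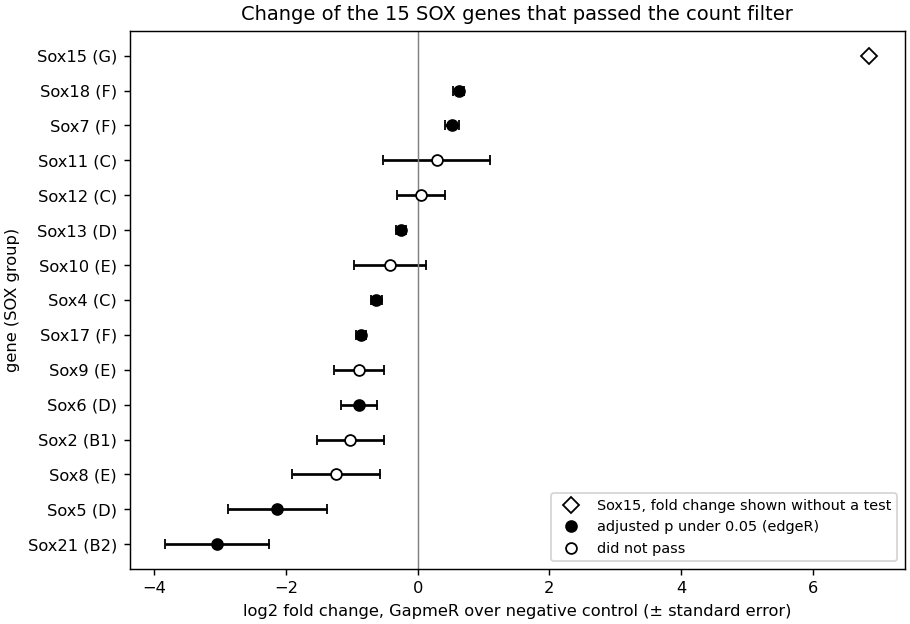
Log2 fold change (GapmeR over negative control, ± standard error) of the 15 SOX genes that passed the count filter, with the SOX group in brackets, filled circles for an adjusted p under 0.05 in edgeR, open circles for the rest and a diamond for Sox15, which was not tested. Sox18 and Sox7 lie right of 0 and Sox17, the third gene of group F, left of it at -0.86. Sox5 and Sox21 passed the filter only through the controls.

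Over the family of 20 genes, 15 passed the count filter. Leaving out Sox15, 2 were higher, 6 were lower and 6 did not pass, while 25.4% of all genes tested were higher and 20.0% lower. The higher genes were both in group F. Of the lower genes, Sox5 and Sox21 passed the filter only through the controls, which favoured that call. The median log2 fold change of the 15 was -0.63. It includes Sox15, chosen for its rise, and Sox5 and Sox21, so it depends in part on how genes were chosen and filtered. With either control left out, Sox5 and Sox21 failed the count filter and were not tested. A single control then remained, and fewer genes were called over the whole table, so the calls lost are not particular to SOX genes. Without control 1, the log2 fold change was -0.19 for Sox13 and -0.41 for Sox6.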

How the data were processed

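RNA depleted of ribosomal RNA was sequenced as paired reads. The authors trimmed the reads, aligned them to mm10 with STAR and deposited whole-number read counts per Ensembl gene, without normalization. The submitters' processing notes name Trimmomatic 0.36, STAR 2.5.2b and Subread 1.5.2, and the strand setting is not given in the sources used here. Samples were grouped by their titles. The paper gives n = 4 per group, and 2 controls were analysed here. A further column of sample counts (1) in the table, whose name matches none of the samples' labels, was left out.

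The 18234 genes that reached 5 counts in 2 or more samples were tested with edgeR 4.0.16 in R 4.3.3 (TMM, robust quasi-likelihood test, Benjamini-Hochberg adjustment over all of them). CPM are TMM-scaled, and SDs are between samples. Total counts were 29261988 to 37117934, and limits of 3 counts and intervals cover counting error only. Replicates differed by more than sampling noise. The functions were tested on simulated data. Levels per kb divide CPM by the union of exons in GENCODE on GRCm39, which also gave distances between genes. Coordinates on mm10 and promoters (GRCm38.p6) come from RefSeq, where 4 of the 7 genes matched a promoter.

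The members and gene lists were chosen with earlier results of these data known. The text names all members, the other SOX genes, the listed targets and partners, neighbouring genes, and the 3 genes nearest in pattern to Sox15, Sox17 and Sox18 with a mean of at least 1 CPM. Beside them, marker genes are named. Alternatives were DESeq2 1.42.0 (size factors and Wald test), library size scaling, other filters, a 1.5-fold threshold, the replicate block, the longest transcript as length, and each sample left out in turn.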

Additional observations from a re-analysis of the deposited data

Results flagged for a closer look

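Within the 4 GapmeR samples, 5 of 34 genes had a sample far from the other 3, measured as the gap to its nearest neighbour divided by the range of the group, and chance flags about 1 group in 20. Sox13 was high in GapmeR sample 4 (0.862). Sox8 (0.847), Sox10 (0.887) and Tubb3 (0.885) were high in GapmeR sample 3. Cdh5 was low in GapmeR sample 2 (0.922), at 1733 ± 175 CPM (SD of n = 4) over the group.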

How the results depend on the processing

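Sox17, Sox18, Sox7 and Sox4 kept their direction and stayed past the adjusted p threshold in each alternative fit and with each sample left out, but Sox7, at 0.53 on the log2 scale, is under the 1.5-fold threshold. Leaving out each sample in turn gave -0.87 to -0.80 for Sox17, 0.57 to 0.72 for Sox18, 0.48 to 0.62 for Sox7, -0.68 to -0.53 for Sox4, -0.32 to -0.19 for Sox13, -0.24 to 0.19 for Sox12 and 6.42 to 7.70 for Sox15 (log2). Sox13 was not past the threshold with library size scaling (-0.10) or with at least 10 counts required in every sample (-0.21). Single samples left out gave 5232 to 8719 genes called, 1930 to 3949 called lower (1930 without control 2, 2262 without control 1), 4 to 10 SOX genes other than Sox15, 2 to 5 group F targets, 0 to 2 partners and other targets, and sign changes for Sox11 (-0.51 to 0.52), Mef2c (-0.0288 to 0.0446), Ctnnb1 (-0.0119 to 0.0372) and Tcf7 (-0.18 to 0.16). The lowest count of SOX genes came with a control left out, where Sox5 and Sox21 failed the count filter. Of all genes, 4628 were called with the 1.5-fold threshold and 2135 were called lower with library size scaling. With at least 10 counts in every sample, 5 SOX genes other than Sox15 were called, as fewer genes were tested, and no partner or target (0), and 1 partner or target was called with library size scaling (Rbpj, higher) and 1 with DESeq2's Wald test. Signs turned with library size scaling for Notch1 (0.026), Mef2c (0.14), Tcf7 (0.11) and Tead2 (0.0496), with the stricter filter for Mef2c (0.0409) and Tcf7 (0.0112), and without a filter for Ctnnb1 (-0.0043). Replicates 1 and 2 share numbers across the groups, and their deviations from the group means had correlations of -0.111 and 0.172. With 2 controls the deviations of 1 mirror those of the other, so this cannot decide whether the numbers pair the samples. The labels do not say that they do. In the replicate block, GapmeR samples 3 and 4 have no control of the same number and add nothing to the group effect. It thus compares GapmeR samples 1 and 2 with the 2 controls. It called 7962 genes and 10 SOX genes other than Sox15, and in it Sox11 (-0.26), Sox12 (-0.36) and Mef2c (0.0605) changed sign. With the longest transcript, Sox13 was at 20.1 and Sox17 at 47.1 CPM per kb in the controls. Where no construction is named, the cause was not tested. A count of 1 to 3 in the controls limits the fold of Sox15, and Sox12, Sox5, Sox8, Sox10, Sox11 and Sox21 rest on few counts.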

Other observations

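Genes that lie behind an expressed gene were counted, in a way chosen after the data and the values of Sox15 were seen. Among 28525 genes with at most 3 counts in both controls, 178 had at least 25 counts in every GapmeR sample. Where a gene with at least 10 CPM in the controls ended within 5 kb upstream on the same strand, these were 49 of 417 genes (11.75%), and elsewhere 129 of 28108 (0.459%). For protein-coding genes, the values were 37 of 153 (24.18%) and 89 of 7221 (1.23%). Sox15 is among the 37 and was chosen for this same pattern, so the counts say nothing of Sox15 itself. Genes are not independent replicates, no test was made, and where the reads of these genes began was not tested.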
